A study of Mus musculus with 6 samples.

Results

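The H3K4me3 peaks described here are the 366 autosomal peaks called in untreated mouse colonic organoids (wt) that share no base with any H3K4me3 peak called in the same kind of organoids grown with tumor necrosis factor alpha (wt+TNFα). They were 3.26% of the 11233 autosomal wt peaks, and the remaining 10867 overlapped a wt+TNFα peak. Both cultures were epithelial organoids from the colon of C57BL/6 mice, self-organising cultures of crypt cells without the stroma, vessels or immune cells of the tissue. The wt+TNFα culture received 40 ng/ml TNFα for 3 weeks and the wt culture none. Each condition had 1 library for H3K4me3, 1 for H3K27me3 and 1 input. With no replicate there was no test, and every comparison below is between these libraries. A missing peak means that the wt+TNFα library did not pass the calling threshold there. The lowest −log10 q was 7 in the wt and 6.95 in the wt+TNFα H3K4me3 list. Because whole cultures were measured, fewer cells carrying a mark and less of the mark per cell cannot be told apart.

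Trimethylation of histone H3 at lysine 4 is placed by SET1 and MLL complexes around the starts of transcribed genes and at CpG islands. Trimethylation at lysine 27 is placed by Polycomb repressive complex 2 over silenced genes, above all developmental regulators. Promoters that carry both marks are known as bivalent, and in stem cells they are found at genes kept at low output. TNFα is an inflammatory cytokine that signals through NF-κB, and in the colon it is raised during colitis.

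The identity of the material was first checked on the peak lists. All 10 epithelial marker genes had an H3K4me3 peak at a promoter in both conditions, and none of the markers of immune cells, fibroblasts and smooth muscle, endothelium or neural and glial cells had one in either. The H3K4me3 lists held 11552 peaks in wt and 11894 in wt+TNFα, and the H3K27me3 lists 30594 and 60540, which covered 101 and 228 Mb of the autosomes. The peak names carry a spike-in mark in both H3K4me3 lists and in the wt H3K27me3 list but not in the wt+TNFα H3K27me3 list. The H3K27me3 lists may thus have been made differently, and the part of this in the results below was not tested. The labels give a planned depth of 40 M reads for each H3K4me3 library and 60 M for each H3K27me3 library. The study's reporting summary lists more reads for the wt+TNFα than for the wt H3K4me3 library, and the part of this difference in the results was not tested. Chromosome Y held 3 wt H3K4me3 peaks and 0 wt+TNFα peaks, and only autosomes were used. Whether both cultures came from the same animal is not given in the sources used here.

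Where the data bear on a promoter, the sequence is shown for 4 genes that the results turn on. Slc5a8 had the highest promoter peak, Cyp1a1 stands for the CpG-poor genes of xenobiotic metabolism, and Gm3054 lay under the widest peak. Mir375 had the highest wt+TNFα H3K27me3 among peaks with H3K27me3 in that condition alone. Each line gives the 200 bases before the annotated transcript start, read 5′ to 3′ on the strand of the gene from GRCm38 (RefSeq), with every CpG in capitals. All 4 stretches lay inside the wt peak and overlapped no annotated exon.
Slc5a8, chr10:88885792-88885991, plus strand: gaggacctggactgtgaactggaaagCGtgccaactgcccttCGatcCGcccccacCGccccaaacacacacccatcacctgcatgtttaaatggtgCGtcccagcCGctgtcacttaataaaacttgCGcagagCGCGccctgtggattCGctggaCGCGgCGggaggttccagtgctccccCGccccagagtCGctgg
Cyp1a1, chr9:57697413-57697612, plus strand: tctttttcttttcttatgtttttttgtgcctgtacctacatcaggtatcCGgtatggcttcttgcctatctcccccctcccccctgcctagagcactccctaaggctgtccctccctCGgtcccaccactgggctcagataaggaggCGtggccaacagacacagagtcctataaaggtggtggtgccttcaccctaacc
Gm3054, chr5:137166071-137166270, minus strand: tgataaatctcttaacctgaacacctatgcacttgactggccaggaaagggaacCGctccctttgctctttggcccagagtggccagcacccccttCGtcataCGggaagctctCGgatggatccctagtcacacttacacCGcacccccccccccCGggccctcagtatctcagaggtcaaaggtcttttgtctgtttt
Mir375, chr1:74900722-74900921, minus strand: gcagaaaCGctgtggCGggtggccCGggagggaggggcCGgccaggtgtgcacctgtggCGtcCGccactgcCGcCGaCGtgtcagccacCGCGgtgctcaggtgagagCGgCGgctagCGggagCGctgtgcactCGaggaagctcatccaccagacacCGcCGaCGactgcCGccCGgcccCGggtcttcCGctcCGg
The stretch of Mir375 held 24 CpGs and that of Slc5a8 15. The stretch of Gm3054 held 6 and that of Cyp1a1 3. Slc5a8, Gm3054 and Mir375 had H3K27me3 in wt+TNFα alone and Cyp1a1 in neither condition, so CpG content varied within the first of these classes.

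The peaks called in wt alone were mostly weak and narrow. Fold enrichment, the read pileup at the summit over the local background estimated from the input, had a median of 6.34 (range 3.24 to 157.5), against 25.1 over all autosomal wt peaks. The members were selected on the presence and absence of a called H3K4me3 peak in these libraries, so all H3K4me3 values are given as a description. Of the lowest 25% of the wt list by −log10 q, 361 of 2813 peaks (12.8%) were called in wt alone, against 5 of all stronger peaks. The median width was 503.5 bp (range 336 to 3714), against 1415 bp over all wt peaks. Of the 602 wt peaks under 500 bp, 180 (29.9%) were called in wt alone, and of the 2700 peaks of 2000 bp or more, 5 (0.185%) were. The 5 wide peaks lay at the promoters of Gm3054 and Gm40348, Cyp1a1, Neu3, 9130410C08Rik and Slc5a8.

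**Figure D1:**
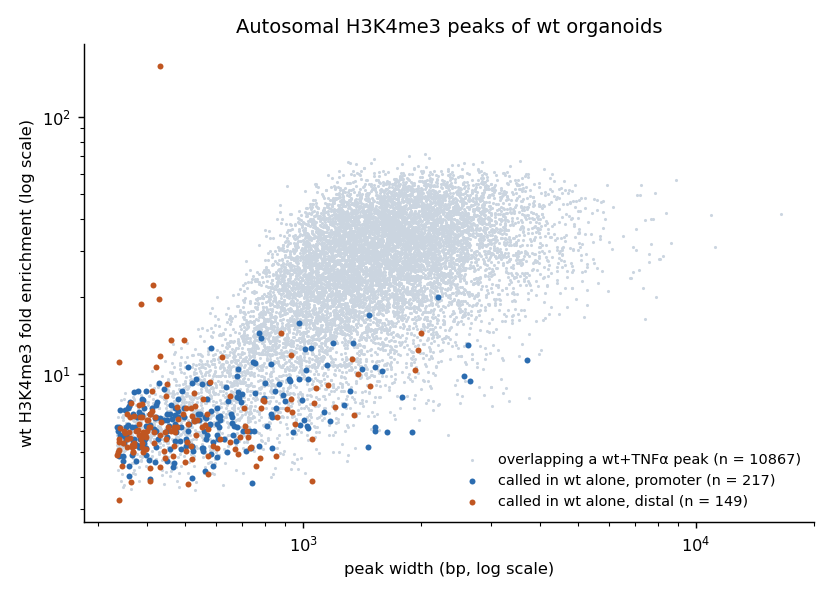
Width in bp (x axis, log scale) and fold enrichment (y axis, log scale) of the 11233 autosomal H3K4me3 peaks of wt organoids. Grey points are the 10867 peaks that overlap a wt+TNFα peak, blue points the 217 promoter peaks and orange points the 149 distal peaks called in wt alone. Most colored points sit at the narrow, low end, around the medians of 503.5 bp and 6.34, and 1 distal point stands at a fold enrichment of 157.5.

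At the edge of the rule, the wt-alone peak nearest to a wt+TNFα peak, at Nedd4l, was separated from it by 48 bp. On the other side, the shared peaks with the least overlap lay at Sept9 (112 bp) and at Cdx2, an intestinal transcription factor gene (120 bp). By distance few members were close to the edge, since 32 lay within 1000 bp of a wt+TNFα peak, 72 within 5000 bp, and 260 were over 10000 bp from any. By strength most were nearer the calling threshold than other wt peaks. Of the 366, 233 had a −log10 q under 20 and 344 under 50, against 742 and 2014 of all 11233 wt peaks. The members were spread over all 19 autosomes, from 2.21% of the wt peaks of chromosome 16 to 5.13% of those of chromosome 18. Only 18 of the 366 lay within 20000 bp of another member, and Krt20, Slc6a4, Cyp1b1 and Tmcc3 were the 4 genes with at least 2 members at their promoters.

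Promoters held 217 of the 366 peaks (59.3%, 95% Wilson interval 54.2 to 64.2%), where a promoter is the 1000 bp on each side of any annotated transcript start. Over all wt peaks the share was 92.4%, and over the shared peaks of the lowest 25% of the wt list, which are closer in strength, it was 75.8%. The peaks called in wt+TNFα alone had nearly the same share, 58.2%. Their widths and fold enrichments had medians of 556 bp and 6.74, so a low promoter share and a narrow, weak peak were found in either direction. The intervals of these shares cover counting error only. A protein-coding promoter was touched by 185 of the 217, and a non-coding promoter alone by 32. Of the 149 distal peaks, 84 had their summit in a gene body and 65 between genes. Their summits lay a median of 5508 bp from the nearest start, 70 within 5000 bp and 41 over 10000 bp away. In all, 246 genes had a promoter under such a peak, 190 of them protein-coding, or 1.88% of the 13082 genes with a wt peak. No wt+TNFα H3K4me3 peak was called at any promoter of 207 of the 246, and the other 39 had one at a promoter, outside the wt-alone peak. Whether that peak lay at the same start or at another was not examined.

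The wt values at the top 25 protein-coding genes ranged from 9.26 to 19.9 in fold enrichment and from 510 to 2664 bp in width. Slc5a8, which encodes a sodium-coupled transporter of butyrate and other monocarboxylates in colonocytes, was first at 19.9, over chr10:88885643-88887848. Its summit lay in an exon, 359 bp from a start, and the nearest wt+TNFα H3K4me3 peak was 58186 bp away. Zbtb16, the gene of the zinc finger factor PLZF, followed at 17.0 over chr9:48835137-48836605. Rims4 had 15.8 and Ror1, a receptor of Wnt5a, 13.8. Only Camta1, Gpam and Dab2ip among the 25 had a wt+TNFα peak at another of their promoters. Of the 25, 13 had H3K27me3 in both conditions, 7 in wt+TNFα alone and 5 in neither. In the same order, the counts were 90, 22 and 105 of all 217 promoter members and 628, 173 and 9438 of all 10377 wt promoter peaks. Of the 7, H3K27me3 covered only 17.9% of the peak at Neu3, 28% at Snurf and 46% at Klb, and all of it at the other 4.

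**Figure D2:**
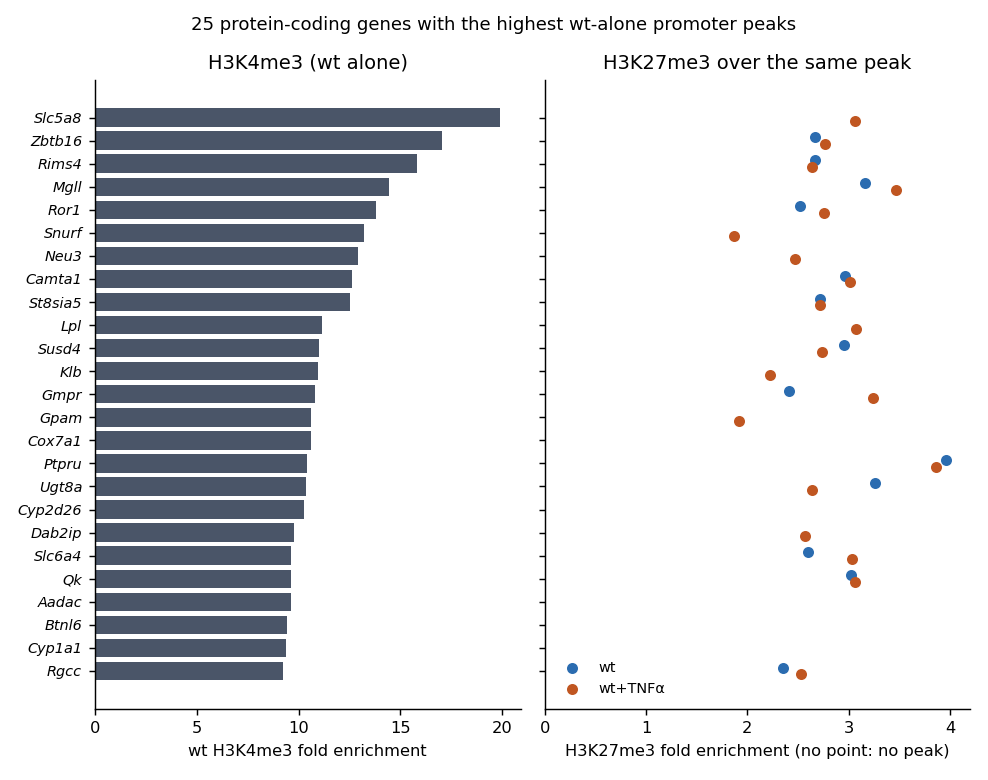
Left, fold enrichment (x axis) of the H3K4me3 peak called in wt alone at the 25 protein-coding genes with the highest values, from 19.9 at Slc5a8 to 9.26 at Rgcc. Right, fold enrichment of the H3K27me3 peak over the same place in wt (blue) and wt+TNFα (orange), where a missing point means no peak. Slc5a8, Snurf, Neu3, Lpl, Klb, Gpam and Dab2ip have an orange point alone.

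H3K27me3 was the mark that the rule did not use. At least 1 bp of an H3K27me3 peak lay over 101 of the 366 peaks (27.6%, 95% Wilson interval 23.3 to 32.4%) in wt and over 129 (35.2%, 30.5 to 40.3%) in wt+TNFα, against 7.4% and 7.74% of all wt H3K4me3 peaks. All 101 also had it in wt+TNFα, so 28 peaks (7.65%, 5.35 to 10.8%) had it in wt+TNFα alone, 0 in wt alone, and 237 (64.8%) in neither. The share in both was 6.04% over all wt peaks, the share in wt+TNFα alone 1.69% and that in wt alone 1.35%. Among the shared peaks of the lowest 25%, 16.9% had H3K27me3 in both, 2.69% in wt+TNFα alone and 3.87% in wt alone. The 761 autosomal peaks called in wt+TNFα alone (6.58% of that list) had the opposite order, with H3K27me3 in wt alone at 5.39% (4 to 7.23%) and in wt+TNFα alone at 1.45% (0.809 to 2.57%). The background of their list was 1.65% and 1.45%. In each direction, then, the peaks missing from one H3K4me3 list had H3K27me3 more often in the condition without the H3K4me3 peak than in the condition with it. The wt+TNFα H3K27me3 list covered more of the genome, and with it cut to the covered length of the wt list 14 of the 366 peaks (3.83%) had H3K27me3 in wt+TNFα alone and 2 (0.546%) in wt alone, against 0.864% and 2.01% of all wt peaks.

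**Figure D3:**
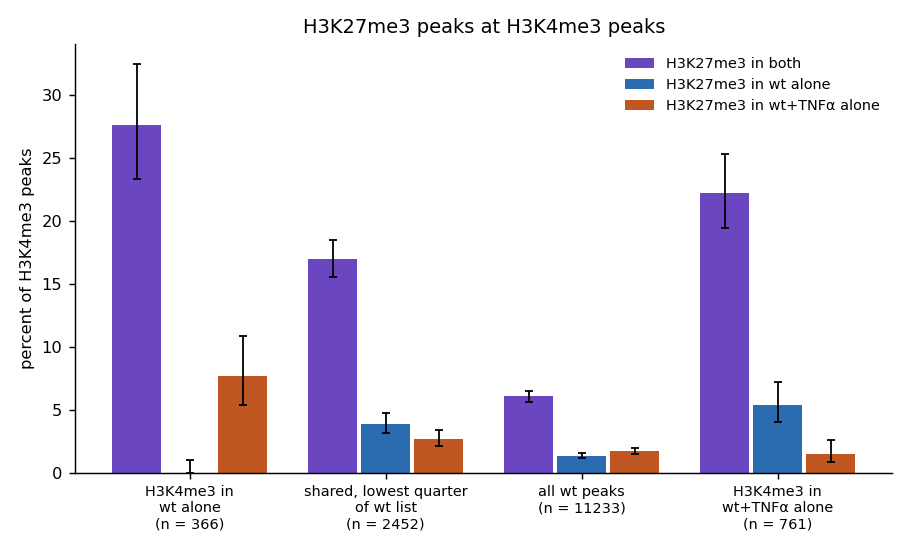
Percent of H3K4me3 peaks (y axis) with an H3K27me3 peak in both conditions (purple), in wt alone (blue) or in wt+TNFα alone (orange), for 4 sets of H3K4me3 peaks. Bars are shares and lines 95% Wilson intervals. The orange bar is above the blue one for peaks called in wt alone (7.65% and 0%), and the blue bar above the orange one for peaks called in wt+TNFα alone (5.39% and 1.45%).

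The 28 peaks with H3K27me3 in wt+TNFα alone held 22 promoters and 6 distal sites. Their H3K27me3 fold enrichment, a mean over a broad peak, ranged from 1.73 to 3.54 with a median of 2.16. H3K27me3 covered 14 of the 28 wholly and 21 by at least 50%. In wt, the nearest H3K27me3 peak was within 1000 bp for 6, within 5000 bp for 11 and over 10000 bp away for 15. At 6 of the 28, then, the mark had an edge close by in wt, and at 15 the wt list had none in the neighbourhood. Their median width of 531.5 bp was close to the 503.5 bp of all 366, but 8 of 28 (28.6%) were at least 1000 bp wide against 11.5% of all 366, and 4 of the 5 peaks of 2000 bp or more were among them. A wide peak is more easily touched at an edge, and at Neu3, 1 of these 4, only 17.9% was covered.

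Slc5a8 was the clearest single locus of this kind. In wt it had the H3K4me3 peak of 19.9 and no H3K27me3 within 97224 bp, and in wt+TNFα it had no H3K4me3 peak and an H3K27me3 peak of 3.06 over chr10:88884800-88890218, which covered the whole wt H3K4me3 peak. Lpl encodes lipoprotein lipase, which releases fatty acids from circulating triglycerides. Its H3K4me3 peak in wt was 11.1 over chr8:68880957-68881700, and a wt+TNFα H3K27me3 peak of 3.07 spanned it. In wt an H3K27me3 peak of 2.58 ended 110 bp upstream of the same place. Mir375 encodes a microRNA of enteroendocrine and other secretory cells. Its wt H3K4me3 peak was 5.11 over chr1:74900472-74900961, and 70.6% of it lay under a wt+TNFα H3K27me3 peak of 3.54 that was 76951 bp wide, the highest value among these 28. In wt, H3K27me3 peaks already flanked the gene on both sides, the nearest 2449 bp from the H3K4me3 peak and the strongest of 3.5. Klb, the co-receptor of FGF15 and FGF21, had 10.9 for H3K4me3 in wt and 2.22 for H3K27me3 in wt+TNFα. Sh3bp1 had 9.15 in wt and H3K27me3 of 2.31 over the whole peak in wt+TNFα. Gpam and Mlxipl, the genes of a glycerol-3-phosphate acyltransferase and of the carbohydrate-response factor ChREBP, had H3K27me3 of 1.91 and 2.52. Both had a wt+TNFα H3K4me3 peak elsewhere at a promoter. Aqp8, a water channel of surface colonocytes, had 5.96 over 1639 bp in wt and H3K27me3 of 2 over 56.5% of it in wt+TNFα.

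**Figure D4:**
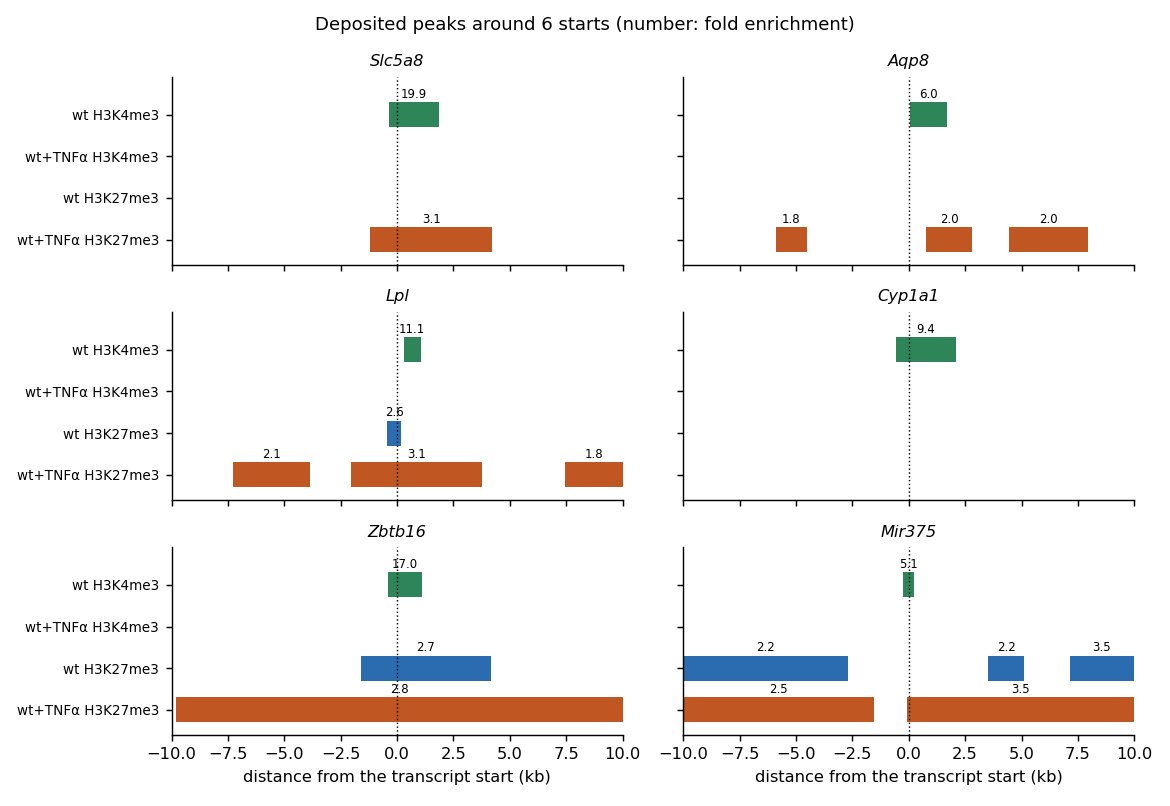
Deposited peaks of the 4 ChIP libraries (rows) by distance in kb from the transcript start of 6 genes (x axis, read in the direction of the gene, shown to 10 kb on each side), with the fold enrichment of each peak above it. At Slc5a8 the H3K4me3 peak of wt (19.9) and the H3K27me3 peak of wt+TNFα (3.06) occupy the same place, Cyp1a1 has no H3K27me3 peak in either condition, and Zbtb16 has H3K27me3 peaks over the start in both.

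Of the 101 peaks with H3K27me3 in both conditions, 90 lay at promoters and 11 were distal, and their median width was 456 bp. H3K27me3 covered 91 wholly in wt and 100 in wt+TNFα. Of the 578 shared peaks with H3K27me3 in both, 387 were wholly covered in wt and 426 in wt+TNFα. For the 415 weakest of these by −log10 q the counts were 319 and 342. Most of the 101 thus lay wholly inside an H3K27me3 peak, but coverage in wt was 46.9% at 2900072N19Rik and 22.6% at Islr2. In wt+TNFα, coverage at Thbs1, also among the 101, was 52.8%. Named after their values were seen, transcription factor genes of embryonic patterning in this class included Gata4 (H3K4me3 7.02), Msx1 (6.41), Msx3 (4.55), Zic5 (6.81), Sall3 (6.41), Foxf1 (5.18), Foxl2 (4.61), Gsc (8.61) and Cux2 (6.7). Prdm16 (5.26), a factor of the same kind, had H3K27me3 in neither condition. Gata4 directs heart and foregut development and is a small-intestinal rather than a colonic factor. Its H3K27me3 fold enrichment was 4.66 in wt and 5.43 in wt+TNFα. Nkd1, an inhibitor of Wnt signalling, had H3K4me3 of 5.36 and H3K27me3 of 3.16 and 3.45. Ptch1, the receptor of hedgehog ligands, and Tgfbr3, a co-receptor of TGF-β, were in the same class, Tgfbr3 with H3K4me3 of 6.21 and H3K27me3 of 3.65 in wt and 3.34 in wt+TNFα. Over the 101 peaks the ratio of wt+TNFα to wt H3K27me3 fold enrichment had a median of 1.04 (quartiles 0.94 and 1.2) and was above 1 at 60. Over the 578 shared peaks with H3K27me3 in both, the median was 0.994 (quartiles 0.89 and 1.1). The quartile ranges of the ratio overlapped, and with 1 library per condition no difference between the sets can be called.

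Median CpG content differed between the H3K27me3 classes, which overlapped. The observed over expected CpG ratio in a window of 150 bp on each side of the summit had a median of 0.45 over the 366 peaks, against 0.79 over all wt peaks and 0.63 over the shared peaks of the lowest 25%. The peaks called in wt+TNFα alone had 0.51. It was 0.89 at the 101 peaks with H3K27me3 in both, 0.55 at the 28 with it in wt+TNFα alone and 0.31 at the 237 with none. Over all wt peaks the classes were close, at 0.9, 0.79 and 0.78 in the same order. The value was also low at promoters, where the 105 peaks without H3K27me3 had a median of 0.3. GC content followed the same order, with medians of 72.4%, 57.6% and 51.8%.

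**Figure D5:**
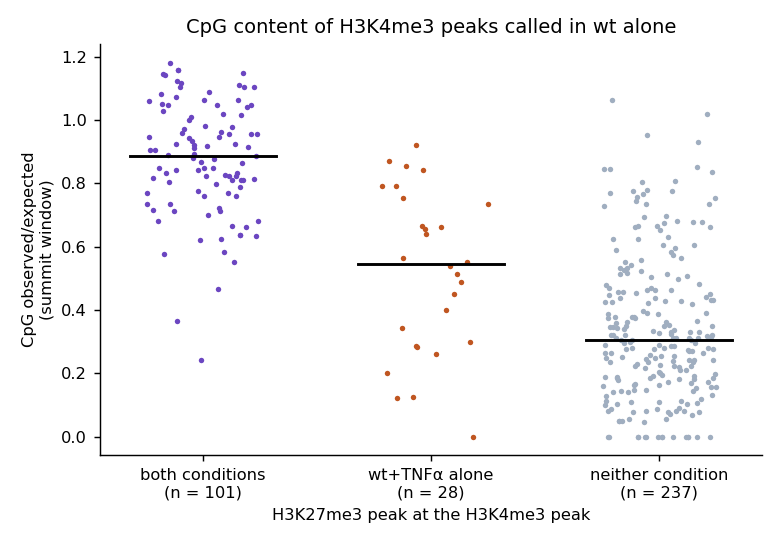
Observed over expected CpG ratio within 150 bp of the summit (y axis) of each H3K4me3 peak called in wt alone, by the H3K27me3 peaks at the same place (x axis). Points are peaks and black lines the medians, which are 0.89 for H3K27me3 in both conditions, 0.55 for wt+TNFα alone and 0.31 for neither. The purple points lie mostly above the grey ones, and the classes overlap.

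Several of the 105 promoter peaks without H3K27me3 lay at cytochrome P450 genes. Of the 16 autosomal cytochrome P450 genes of families Cyp1 to Cyp4 that had a wt promoter peak, 6 (37.5%) had one called in wt alone. They were Cyp1a1 (fold enrichment 9.37, 2664 bp), Cyp2d26 (10.3, 1590 bp), Cyp2c70 (5.81), Cyp2j9 (4.62), Cyp4f40 (5.26) and Cyp1b1, which had 2 peaks (6.8 and 5.21). The background over all genes with a wt peak was 1.88%, but it was not matched for peak strength or width. Of the 2813 wt peaks with the lowest −log10 q, 12.8% were called in wt alone. Of the 602 wt peaks under 500 bp, 29.9% were. The part of peak strength and width in the P450 share was not tested. Cyp1a1 and Cyp1b1 are targets of the aryl hydrocarbon receptor and oxidise planar aromatic compounds. The stronger of the Cyp1b1 peaks had H3K27me3 in both conditions, of 2.56 and 4.8, and all other P450 peaks had none. No wt+TNFα H3K4me3 peak was called at any start of these 6 genes. Further enzymes of the same kind were Ugt2b35 (6.61), Gstm1 (6), Ces2e (6.41), Aadac (9.61) and the retinol dehydrogenase gene Rdh16 (6.26). Of these, Gstm1 had a wt+TNFα peak elsewhere at a promoter. The P450, Ugt and Gst genes belong to families of similar copies, and their values are uncertain where reads from such copies could not be told apart. The names of the deposited lists carry the mark Q25, and whether it stands for a filter on mapping quality is not stated. The family was picked with these values in view. Among other families of drug and aldehyde metabolism, the peak was called in wt alone at 2 of 5 Ugt genes, 1 of 13 Gst genes (7.69%), 0 of 12 Aldh genes and 0 of 2 Sult genes. Families were taken by symbol, and of the 2 Ugt genes Ugt8a encodes a transferase of sphingolipid synthesis rather than of drug metabolism and had H3K27me3 in both conditions (3.26 and 2.63). For comparison, 10 of 189 Slc genes (5.29%), 2 of 314 Zfp genes (0.637%), 0 of 13 Hox genes and 0 of 158 Tmem genes with a wt promoter peak had one called in wt alone.

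Among the gene lists, absorptive colonocytes had the most members. Of the 14 colonocyte genes with a wt promoter peak, 4 had it in wt alone and none of these 4 had a wt+TNFα peak. The share over all genes with a wt peak, not matched for peak strength, was 1.65%. The 4 genes were Slc5a8 and Aqp8, described above, Slc51b (6.32) and Krt20 (6.21 and 5.61). Slc51b encodes the beta subunit of the basolateral bile acid exporter, and Krt20 the keratin of mature surface cells. In the opposite direction, of the 14 colonocyte genes with a wt+TNFα peak, Car1 (7.87), Ceacam20 (4.6), Guca2a (5.2) and Guca2b (7.7) had none in wt, against 3.4% of all genes with a wt+TNFα peak. Car1 encodes a carbonic anhydrase, and Guca2a and Guca2b encode guanylin and uroguanylin, so the genes on both sides belong to surface epithelium. Slc26a3, the chloride and bicarbonate exchanger, had a peak in both, of 8.01 in wt and 9.4 in wt+TNFα. Of the 15 stem cell and Wnt genes with a wt peak, 1 (Nkd1) was called in wt alone, and of the 15 TGF-β and BMP genes, 1 (Tgfbr3). The lists of the NF-κB response (15 genes with a wt peak), senescence (11), goblet cells (6), antimicrobial defence (5), enteroendocrine cells (2), tuft cells (1) and general colonic epithelium (14) held 0.

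Further members lay at transporters and at genes of lipid and sugar metabolism, named after their values were seen. How many such metabolic genes had a wt peak was not counted, so no share of them can be read. Slc6a4, the serotonin transporter gene, had 2 peaks, 1 of 9.61 with H3K27me3 in both conditions (2.6 and 3.03) and 1 of 6.96 whose edge touched H3K27me3 in wt+TNFα alone (1.77 over 3.35% of the peak). Slc39a5, a zinc importer, had 7.97, and Slc40a1, the iron exporter ferroportin, had 6.01, both without H3K27me3. Slc40a1, Slc36a1 and Slc37a1 had a wt+TNFα peak elsewhere at a promoter, and Slc39a5 had none. Among metabolic genes, Mgll, the monoacylglycerol lipase gene, had 14.4 over 774 bp, with H3K27me3 of 3.16 in wt and 3.46 in wt+TNFα. Acer1, a ceramidase gene, had 8.61 over 1316 bp, without H3K27me3. Nr1h3, the gene of the sterol-sensing receptor LXRα, had 9.21 in wt and a wt+TNFα peak elsewhere at a promoter.

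A few members lay at imprinted genes, which are expressed from 1 parental copy. How many imprinted genes had a wt peak was not counted, so no share can be read from them. The shared start of Snrpn and Snurf had 13.2 over 1341 bp in wt, Kcnq1ot1, the antisense RNA of its domain, 8.17 over 1782 bp, Peg3 6.61 over 532 bp, and Nespas 4.41 over 361 bp. Snrpn and Peg3 had H3K27me3 in wt+TNFα alone, of 1.87 over 28% of the peak and 2.3 over 55.6%. In wt, the nearest H3K27me3 peak was 59 bp away at Peg3 and 2411394 bp away at Snrpn. Kcnq1ot1 had none and Nespas had it in both conditions. The choice of these 4 followed sight of their values.

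The distal peaks were more repeat-rich and AT-rich than the promoter peaks. The median GC content of the summit window was 51.8% at the 149 distal and 60.8% at the 217 promoter peaks, and 13 distal against 3 promoter peaks were at least 50% repeat-masked. H3K27me3 in either condition was found at 17 of the 149 (11.4%), close to the 9.58% of all 856 distal wt peaks. At promoters it was found at 112 of the 217 (51.6%), against 9.05% of all promoter wt peaks. Short motifs of intestinal factors, of AP-1 and of the TATA box were searched in the summit windows on both strands. The GATA motif AGATAA was present in 9.56% of the 366 windows, against 3.44% over all wt peaks and 6.32% over the shared peaks of the lowest 25%. The AP-1 motif TGANTCA was present in 5.19%, 3.04% and 4.04% in the same order. The CDX motif TTTATG was in 7.65%, 3.46% and 6.85%, and the TATA box TATAAA in 6.83%, 2.61% and 5.55%. The HNF4 motif, also searched, was in 1 of the 366 windows. The peaks called in wt+TNFα alone were close to the 366, with GATA in 9.46%, AP-1 in 5.65%, CDX in 7.49% and the TATA box in 6.44%. At distal peaks alone the GATA motif was in 14.1%, against 8.41% of all distal wt peaks, and the AP-1 motif in 7.38% against 5.84%. A match is a description of these letters, and the lower GC content of the windows moves with it.

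The single highest value stood apart. A 433-bp peak at chr17:4626166-4626598 had a fold enrichment of 157.5, against 71.3 for the next highest wt peak and 68.9 for the highest wt+TNFα peak. It lay between genes, 367985 bp from the nearest protein-coding start (Arid1b), and 85% of its bases were repeat-masked. The next distal peak, between genes and nearest to Mrln (22.1, 415 bp), was 49.4% repeat-masked. It was followed by 1 in an intron of Deaf1, nearest to the Drd4 start (19.6, 430 bp, 59.5% repeat-masked), 1 in an intron of Prkdc (18.7, 386 bp, 92%) and 1 in an exon of Cdc27 (14.4, 878 bp, 28%). Of the 38 members with a fold enrichment of at least 10, 9 were at most 500 bp wide, and all 9 were distal. The part of repeats in these values was not tested.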

How the data were processed

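H3K4me3 and H3K27me3 were profiled by ChIP-seq in organoids with and without TNFα. Per the study's methods, the authors used fastp for trimming, BWA 2.2 for alignment to GRCm38/mm10 and SAMtools 1.11 to drop duplicates. Reads in blacklisted regions were then taken out, and MACS2 2.1.0 was run with the matching input as control. The methods state default parameters, whereas the study's reporting summary names another MACS2 version, a stricter q cut-off for H3K4me3 and broad calling for H3K27me3. Whether a spike-in scaled the libraries is not given in the sources used here. The deposited peak lists give a ratio (fold enrichment), a p-value and a q-value for every peak, the last 2 as −log10. The deposited score column of the lists, a whole number made by the peak caller, was not used. No read counts were used, so depth per peak is unknown.

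Peaks were intersected with bedtools 2.31.1 and Python 3.11.15 (pandas 2.3.3), checked on simulated intervals. H3K4me3 peaks of wt with 0 bp of overlap with wt+TNFα peaks were kept, on 19 autosomes. Genes were taken from the GENCODE annotation of GRCm38 (55450 genes), promoters were 1000 bp on each side of a start, and H3K27me3 counted from 1 bp of overlap. Sequence was read from RefSeq GRCm38 with pysam 0.24.0. Shares have Wilson intervals at 95%, which cover counting error only.

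Genes picked by rule were the 25 with the highest promoter fold enrichment, the 5 widest promoter peaks, the 5 strongest distal peaks, the 10 promoter peaks with the highest H3K27me3 in wt+TNFα alone, and all members of the gene lists. Most other genes were named after their values were seen. The members and lists were chosen with earlier results of these data known.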

Additional observations from a re-analysis of the deposited data

How the results depend on the processing

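No paired analysis was possible because each condition and mark had 1 library and the labels carry no replicate numbers. The number of peaks called in wt alone ranged from 334 to 473 over 6 of its 7 alternatives, the highest with equal numbers of peaks in both lists. It fell to 133 when wt peaks needed a −log10 q of at least 20, which removes weak peaks by construction. The promoter share was 65.8% with promoters of 2000 bp on each side, 50.5% with protein-coding genes alone and 45.6% with 1 start per gene. The share with H3K27me3 in wt+TNFα alone was 3.83% with the wt+TNFα H3K27me3 list cut to the covered length of the wt list. For the shares and the width, all other alternatives, among them the removal of peaks at least 50% repeat-masked, which was chosen after seeing the data and left 350 peaks, kept their values within the interval of the reported one. The width and the shares with H3K27me3 in wt, in wt+TNFα and in wt alone moved under none of theirs. The data have no replicate, peaks near the threshold can be missed in either library, and the depth behind each peak is unknown.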

Other observations

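Some peaks with H3K27me3 in both conditions lay at genes of cell-surface receptors. How many receptor genes had a wt peak was not counted, so no share can be read. Named after their values were seen, the genes included Sstr1, a somatostatin receptor (H3K4me3 fold enrichment 7.61), Npy1r, a neuropeptide Y receptor (6.36), Cnr1, a cannabinoid receptor (4.41), Hrh3, a histamine receptor (9.15), Ptger3, a prostaglandin E2 receptor (8.09), and Ccr9, the receptor of the gut chemokine CCL25 (5.7).

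A few genes of the innate and interferon response lay among the promoter peaks without H3K27me3, also named after their values were seen. How many such genes had a wt peak was not counted, so no share can be read from them. The fixed lists of the NF-κB response and antimicrobial defence held 0 members. Of their genes with a wt+TNFα peak, 4 of 19 and 2 of 7 had none in wt, against 3.4% of all genes with a wt+TNFα peak. Gbp2, a guanylate-binding protein, had a fold enrichment of 7.01, Xaf1 of 5.18, Ifi27l2b of 8.41 and the inflammasome sensor gene Nlrp1b of 7.21. Peaks called in wt alone were also found at Muc1, a membrane mucin (5.74), and at Erbb2, a receptor tyrosine kinase (7.81). Erbb2 had a wt+TNFα peak elsewhere at a promoter.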
